A study of Homo sapiens with 9 samples.

Results

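Small leucine-rich proteoglycans (SLRPs) are secreted matrix proteins built from leucine-rich repeats, many of which carry sulfated sugar chains. The 7 genes chosen by name were DCN (decorin), LUM (lumican), BGN (biglycan), FMOD (fibromodulin), OGN (osteoglycin, also called mimecan), PRELP (prolargin) and ASPN (asporin). Of these, 6 had a row among the 25084 genes of the table, and BGN was not analysed here. The family was singled out because DCN and LUM were much higher after HAND2 knockdown, so the siHAND2 against siCTR values of its members are given below as a description, with no test. SLRP core proteins bind collagen fibrils and set their diameter and spacing, and several of them also bind growth factors and cell surface receptors. Decorin, biglycan and asporin form class I and are chondroitin or dermatan sulfate proteoglycans, apart from asporin, which lacks such a chain; lumican, fibromodulin and prolargin form class II, in which lumican and fibromodulin can carry keratan sulfate; osteoglycin belongs to class III. Fibroblasts and other stromal cells are their best known source, and in neuroblastoma tumours such matrix is mostly associated with the stromal component.

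RNA was sequenced from LAN5, an established human neuroblastoma line with amplified MYCN. Cells of all groups were nucleofected with an siRNA and kept for 72 h in RPMI-1640 with fetal calf serum. Each of the 3 groups had 3 libraries. The controls received the siRNA named siCTR, and the knockdown groups received the siRNA labelled siMYCN_2, here siMYCN, or siHAND2_3, here siHAND2. The labels name a single siRNA for each target, so the loss of the target and an effect of that siRNA's own sequence cannot be told apart. Nothing in the labels says that the libraries of a group came from separate cultures, so the p-values measure the spread between these libraries, which may be technical.

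Values are CPM, a gene's reads scaled to the library's total. The totals ranged from 21100000 to 32700000 reads, rounded, as read from the smallest step of the CPM values. The targets were checked first. MYCN ranged from 1786 to 1894 CPM over the siCTR libraries, from 1245 to 1338 CPM with siMYCN and from 877 to 969 CPM with siHAND2. HAND2 ranged from 489 to 516, from 557 to 588 and from 267 to 280.4 CPM in the same order. Each target was lower in all 3 libraries of its own siRNA than in any siCTR library, and MYCN was lowest in the siHAND2 libraries. HAND2 and MYCN were thus both lower in siHAND2, and the part of each in the siHAND2 results was not tested. All 10 neuroblastoma markers listed (TH, DBH, DDC, CHGA, CHGB, SCG2, STMN2, GAP43, ELAVL4 and SYP) reached 1 CPM in 3 or more libraries, with a summed level of 2331 to 3091 CPM per library. This was the filter used for tests unless stated otherwise. TH, the first enzyme of catecholamine synthesis, measured 2.95 ± 0.363 CPM in siCTR (SD, n = 3 libraries).

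LUM and DCN were higher in both knockdowns than in control cells, most of all in siHAND2, where DCN went from near silence to a clear level. LUM encodes lumican, a keratan sulfate proteoglycan that regulates collagen fibril assembly. Its siCTR libraries held 8.99, 9.21 and 9.25 CPM, those of siMYCN 16.5, 17.6 and 17.5 CPM and those of siHAND2 56.2, 49.8 and 58.2 CPM. The 3 groups did not overlap, and siMYCN lay between siCTR and siHAND2. Group means, in that order, were 9.15 ± 0.142, 17.2 ± 0.617 and 54.7 ± 4.40 CPM (SD, n = 3 libraries). The siHAND2 mean was 5.98 times and the siMYCN mean 1.88 times that of siCTR.

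DCN encodes decorin, which carries a single chondroitin or dermatan sulfate chain, binds collagen and TGF-beta, and can act on receptors such as EGFR and MET. Its siCTR libraries held 0.397, 0.374 and 0.522 CPM, which stood for 13, 10 and 11 reads. DCN stood at 1.61, 1.11 and 1.17 CPM with siMYCN (40, 29 and 34 reads) and at 11.7, 10.2 and 11.2 CPM with siHAND2 (355, 255 and 317 reads). As for LUM, all libraries of siMYCN lay above siCTR and all libraries of siHAND2 above both. DCN averaged 0.431 ± 0.0794, 1.30 ± 0.274 and 11.02 ± 0.781 CPM in these groups (SD, n = 3 libraries). The ratio of means to siCTR was 25.6 for siHAND2 and 3.00 for siMYCN, and the control side of both ratios rests on the few reads above.

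**Figure D1:**
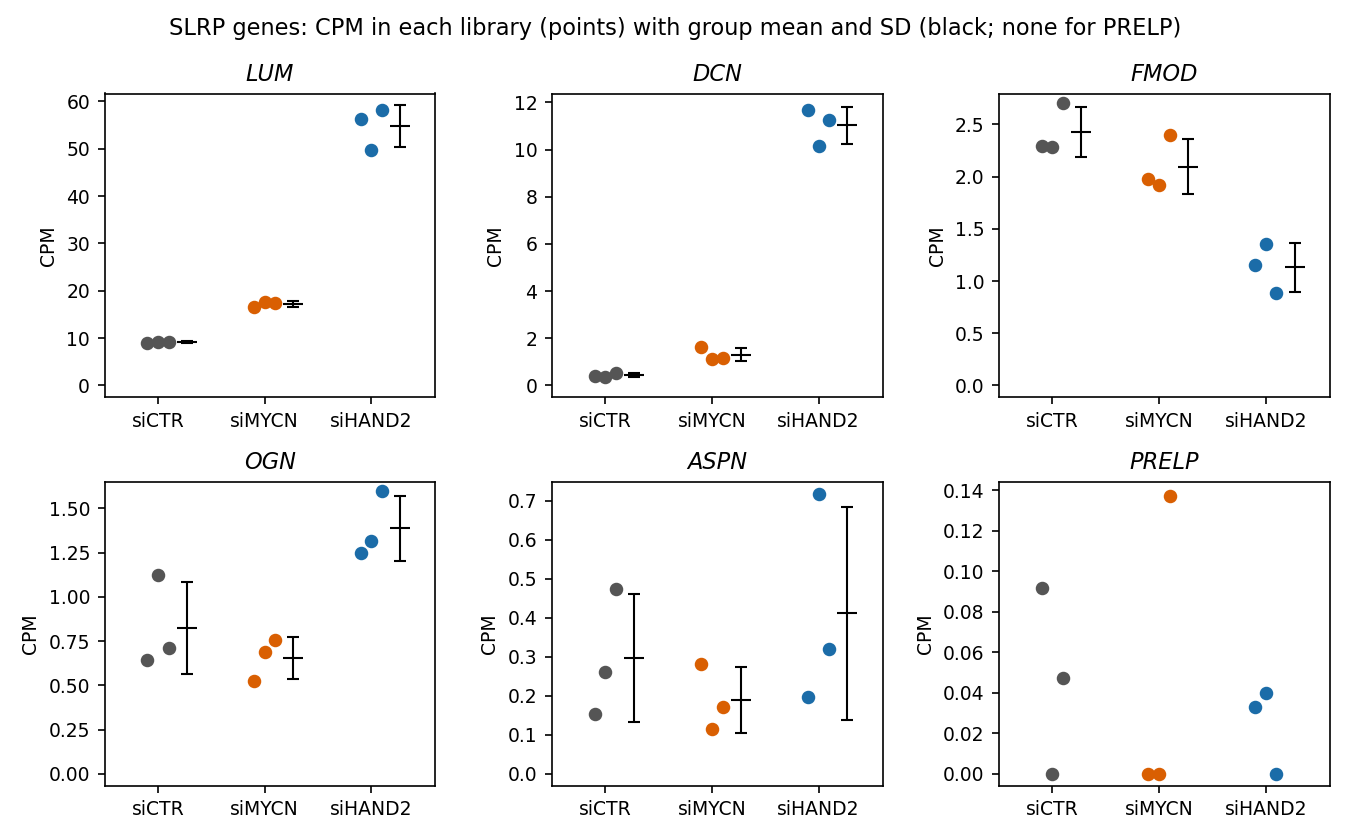
CPM of the 6 measured SLRP genes in each library (points; horizontal axis: siCTR, siMYCN and siHAND2; vertical axis: CPM on a linear scale from 0, different for each gene), with the group mean and SD of 3 libraries in black, not drawn for PRELP. LUM and DCN step up from siCTR through siMYCN to siHAND2 with no overlap, FMOD is lowest and OGN highest in siHAND2, and the groups of ASPN and PRELP overlap.

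DCN and LUM are neighbours. LUM lies at chr12:91102629-91111494 and DCN at chr12:91140484-91182824 (GRCh38), both on the minus strand, 28989 bases apart with no other listed gene between them. KERA and EPYC, the remaining SLRP genes of this cluster, were not analysed here, so the table shows 2 of the cluster's genes. The promoter table from RefSeq has entries for 5 of the 7 members, and DCN and LUM have none.

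Of the other members, FMOD and OGN were low but measurable and their siHAND2 libraries lay on opposite sides of the others. FMOD encodes fibromodulin, a keratan sulfate proteoglycan that competes with lumican for a binding region on type I collagen. It lies at chr1:203340628-203351758 on the minus strand and held 2.29, 2.28 and 2.70 CPM with siCTR (75, 61 and 57 reads). It held 1.97, 1.92 and 2.40 CPM with siMYCN (49, 50 and 70 reads) and 1.15, 1.35 and 0.886 CPM with siHAND2 (35, 34 and 25 reads). All siHAND2 libraries were below the other 6, while siMYCN and siCTR overlapped. The siHAND2 mean, 1.13 ± 0.235 CPM, was 46.6% of the siCTR mean of 2.43 ± 0.241 CPM (SD, n = 3 libraries each).

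OGN encodes osteoglycin, named for its isolation from bone and found in many connective tissues. It lies at chr9:92383268-92404696 on the minus strand and held 0.642, 1.12 and 0.712 CPM with siCTR (21, 30 and 15 reads). It held 0.524, 0.690 and 0.754 CPM with siMYCN (13, 18 and 22 reads) and 1.25, 1.31 and 1.59 CPM with siHAND2 (38, 33 and 45 reads). All siHAND2 libraries were above the other 6, the nearest being siCTR replicate 2, and siMYCN overlapped siCTR. OGN averaged 0.826 ± 0.260, 0.656 ± 0.119 and 1.39 ± 0.183 CPM (SD, n = 3 libraries per group), and siHAND2 was 1.68 times siCTR.

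HAND2 and MYCN belong to the basic helix-loop-helix factors, which bind E-boxes (CANNTG), MYCN with a preference for CACGTG and HAND2 with E-protein partners at words such as CATCTG. The 250 bases before the RefSeq start of FMOD and OGN (GRCh38.p14, minus strand) are printed because these are the 2 members with a promoter entry that passed the filter, with siHAND2 values on opposite sides of siCTR. E-boxes are in capitals.
FMOD chr1:203351123-203351372: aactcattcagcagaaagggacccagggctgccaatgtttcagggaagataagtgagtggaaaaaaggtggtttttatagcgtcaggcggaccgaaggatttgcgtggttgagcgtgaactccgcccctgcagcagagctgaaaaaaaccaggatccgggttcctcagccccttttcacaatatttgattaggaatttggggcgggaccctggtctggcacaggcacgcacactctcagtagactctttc
OGN chr9:92404700-92404949: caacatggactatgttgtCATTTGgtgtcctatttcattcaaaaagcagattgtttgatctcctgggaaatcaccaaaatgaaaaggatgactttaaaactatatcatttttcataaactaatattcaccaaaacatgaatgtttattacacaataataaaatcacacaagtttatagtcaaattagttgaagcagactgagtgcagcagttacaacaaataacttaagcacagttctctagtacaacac
The FMOD window holds no CANNTG, and it lies inside the gene as the table draws it, whose start is farther upstream. The OGN window holds 1, CATTTG, at position -232 from the start, and the window of an OGN start listed farther downstream holds CACATG at -77. Neither CACGTG nor CATCTG or its reverse complement CAGATG is in any of these windows. Since CANNTG reads the same on both strands, 1 pass finds both. Of 35116 promoter windows of this length, 61.8% hold CANNTG, 6.3% CACGTG (a subset of CANNTG) and 12.2% CATCTG or CAGATG (likewise a subset).

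ASPN and PRELP stayed below 1 CPM in every library and did not pass the filter. ASPN encodes asporin, a class I SLRP without a glycosaminoglycan chain that binds collagen and TGF-beta. It lies at chr9:92456205-92482506 and held 0.153, 0.262 and 0.475 CPM with siCTR, 0.282, 0.115 and 0.171 CPM with siMYCN and 0.197, 0.717 and 0.319 CPM with siHAND2. These values stood for 3 to 18 reads and overlapped between all groups. PRELP encodes prolargin, which links basement membranes to connective tissue and lies at chr1:203475806-203491352. It had 3, 0 and 1 reads with siCTR, 0, 0 and 4 with siMYCN and 1, 1 and 0 with siHAND2, so no difference was detectable at this depth.

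The members were then compared in a linear model (limma) of log2(CPM + 1) over all 9 libraries, with p-values adjusted by the Benjamini-Hochberg method over the 14495 genes that passed the filter. The threshold was an adjusted p of 0.05. This scale understates the change of genes near or below 1 CPM. The filter was passed by 4 members: LUM, FMOD, OGN and DCN. DCN passed through its knockdown libraries alone, and its siHAND2 libraries would have sufficed. OGN passed through the 3 siHAND2 libraries and siCTR replicate 2.

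Knockdown of MYCN, the comparison not used to choose the family, went with higher LUM and DCN and no detected change of FMOD and OGN. LUM rose by 0.84 on the log2 scale (standard error 0.07, limma, adjusted p = 1.30e-07). DCN rose by 0.68 (standard error 0.11, limma, adjusted p = 0.000246). Both were higher in 3 of 3 siMYCN libraries, and both calls held under all alternatives run, with adjusted p up to 4.57e-05 for LUM and 0.00484 for DCN. LUM, FMOD and OGN were tested with the filter in this comparison. FMOD differed by -0.15 (95% interval -0.40 to 0.11, limma, adjusted p = 0.372) and OGN by -0.13 (95% interval -0.42 to 0.15, limma, adjusted p = 0.478). Thus 2 of the 4 members that passed the filter were called, both higher. Of all genes that passed it, 35.9% were called and 24.5% were called higher. DCN stands among the 4 only through its knockdown libraries. The siCTR libraries serve this comparison and the one that singled out DCN and LUM, so the 2 comparisons are not independent. The members were also chosen with earlier results of these data known.

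In siHAND2 against siCTR the log2 fold changes were 3.07 for DCN (standard error 0.11), 2.45 for LUM (standard error 0.07), 0.39 for OGN (standard error 0.14) and -0.69 for FMOD (standard error 0.12). DCN depended on the pseudocount, with 4.40 at 0.1 CPM and 1.56 at 5 CPM. Over all genes, 29.9% were called in this comparison, 18.1% higher and 11.8% lower, which is given as background only. Calls over all genes leaned upward with CPM as deposited, and the share of them that was higher moved with the scaling of the libraries, from 60.6% to 47.1% after median-ratio rescaling in siHAND2 and from 68.3% to 51.2% in siMYCN.

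**Figure D2:**
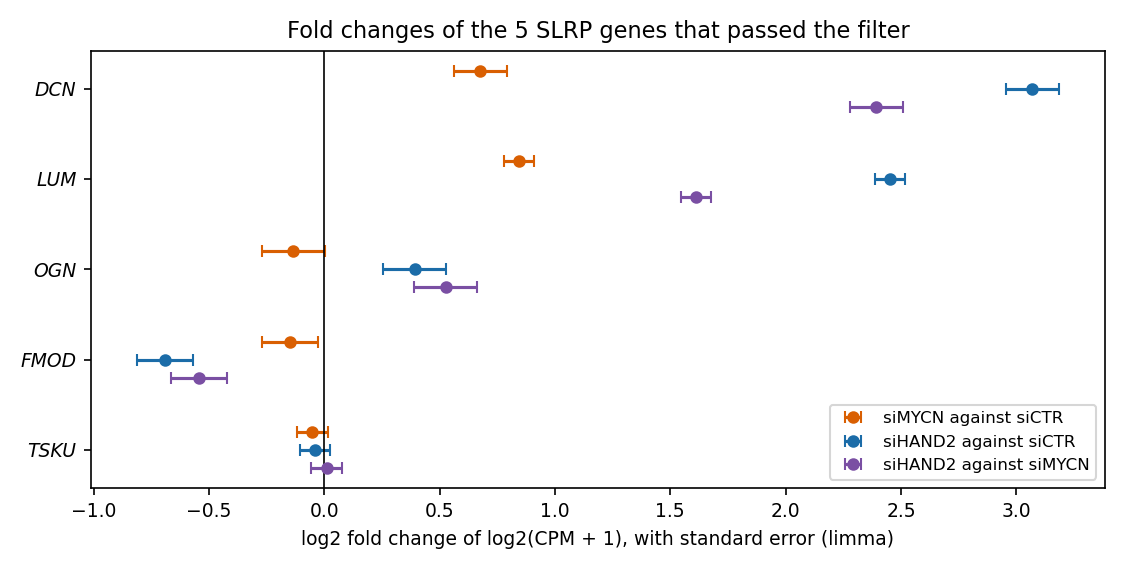
Log2 fold changes of log2(CPM + 1) (horizontal axis) with limma standard errors for the 4 members that passed the filter and for TSKU, the only other SLRP gene that did, in siMYCN against siCTR (orange), siHAND2 against siCTR (blue) and siHAND2 against siMYCN (purple). DCN and LUM lie right of 0 in all 3 comparisons, FMOD left of 0, and TSKU within 0.06 of 0.

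The knockdowns were also compared with each other. FMOD was lower in siHAND2 than in siMYCN, by -0.54 (standard error 0.12, limma, adjusted p = 0.00312), beside 26.9% of all genes called in this comparison. The FMOD call held in all alternatives that gave it a value, with adjusted p up to 0.0205. OGN reached 1 CPM in the 3 siHAND2 libraries and in no siMYCN library, so the filter itself favoured a high siHAND2 level. It was therefore tested in the fit of all 25084 genes with no filter. There it was higher by 0.53 (standard error 0.12, limma, adjusted p = 0.00591, against 0.0084 with the filter). The standard error of OGN was 0.14 with the filter, so the smaller p goes with a smaller standard error and is not a stricter result. LUM differed by 1.61 (standard error 0.07) and DCN by 2.39 (standard error 0.11), given without a test because both genes were picked for their level in the siHAND2 libraries.

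Levels were set between genes only after division by the length of the canonical transcript in GENCODE, which assumes that this isoform was the one expressed. In siCTR, LUM stood at 3.43 ± 0.0534 CPM per kb, FMOD at 0.825 ± 0.0817, OGN at 0.242 ± 0.0763 and ASPN at 0.120 ± 0.0662 CPM per kb (SD, n = 3 libraries). DCN, with a canonical transcript of 6850 bases, stood at 0.0630 ± 0.0116 CPM per kb. OGN and ASPN overlapped at their edges in siCTR, as did ASPN and DCN. In siHAND2 the order was LUM at 20.5 ± 1.65, DCN at 1.61 ± 0.114, OGN at 0.407 ± 0.0538 and FMOD at 0.384 ± 0.0798 CPM per kb (SD, n = 3 libraries), where OGN and FMOD overlapped. DCN thus moved from near the bottom of the members per length to the second place, and FMOD and OGN drew level.

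A wider list of 10 further SLRP genes had 6 rows, those of TSKU, OMD, ECM2, PODN, PODNL1 and CHAD; KERA, EPYC, OPTC and NYX were not analysed here. TSKU, which encodes tsukushi, a secreted modulator of BMP and Wnt signalling, averaged 15.5 ± 0.106 CPM with siCTR, 14.9 ± 0.851 CPM with siMYCN and 15.0 ± 0.743 CPM with siHAND2 (SD, n = 3 libraries). It differed by -0.05 on the log2 scale in siMYCN (95% interval -0.19 to 0.09, limma, adjusted p = 0.583) and by -0.04 in siHAND2 (95% interval -0.18 to 0.10, limma, adjusted p = 0.689). The other 5 did not pass the filter. In 3 of these 5, the siHAND2 libraries all lay above the siCTR libraries, beside 12.0% of the 10589 genes under the filter, many of which are listed at 0. In both members under the filter, ASPN and PRELP, these groups overlapped.

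ECM2, an SLRP-like matrix protein gene, held 0.214, 0.374 and 0.380 CPM with siCTR (7, 10 and 8 reads), 0.161, 0.153 and 0.446 CPM with siMYCN and 0.691, 1.16 and 0.957 CPM with siHAND2 (21, 29 and 27 reads). OMD, which encodes the keratan sulfate proteoglycan osteomodulin, held 0.306, 0.337 and 0.427 CPM with siCTR and 0.461, 1.12 and 0.567 CPM with siHAND2, and siMYCN overlapped both. PODN, which encodes podocan, held 0.458, 0.337 and 0.285 CPM with siCTR, 0.641, 0.460 and 0.685 CPM with siMYCN and 0.771, 0.757 and 0.567 CPM with siHAND2. PODN was thus above siCTR in all 6 knockdown libraries, the nearest pair being siCTR replicate 1 and siMYCN replicate 2, 0.458 and 0.460 CPM. The siMYCN libraries of CHAD also lay above siCTR, on very few reads. The share of all genes under the filter that lay wholly above siCTR in siMYCN was not counted. CHAD held 2, 1 and 1 reads with siCTR, 3, 2 and 2 with siMYCN and 1, 2 and 1 with siHAND2. PODNL1 overlapped between all groups.

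OGN, OMD, ASPN and ECM2 form a cluster on chromosome 9, with OMD at chr9:92414245-92424461 and ECM2 at chr9:92493554-92536655. All 4 lie within CENPP, a centromere protein gene on the plus strand (chr9:92325953-92620529), and the sources used here do not say if the counting used strand, so CENPP reads could stand among theirs. CENPP held 27.7, 27.6 and 29.8 CPM with siCTR and 24.1, 25.0 and 26.6 CPM with siHAND2. The part of CENPP reads in the values of these 4 genes was not tested. Within the cluster, ASPN and OMD had their highest value in siHAND2 replicate 2, with 18 and 28 reads.

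Of the 6 lists of genes around the SLRPs, the collagens and fibril partners had the highest median in both knockdowns. Of 11 tested genes (13 in the table), 8 rose and 0 fell in siHAND2 against siCTR, beside 18.1% of all genes higher and 11.8% lower, with a median log2 fold change of 0.97 beside 0.04 over all genes. COL1A1 and TNXB of this list were not tested and stayed under 1 CPM. Their means were 0.720 and 0.481 CPM in siCTR and 0.363 and 0.443 CPM in siHAND2, with overlap between these groups. COL1A2, a chain of type I collagen, rose from 1.66 ± 0.138 to 15.9 ± 2.10 CPM (2.67, limma, adjusted p = 1.26e-11). COL12A1, a collagen on the surface of fibrils, rose from 2.40 ± 0.405 to 15.9 ± 1.68 CPM (2.31, limma, adjusted p = 1.22e-10), and COL6A3, a chain of the microfibrillar type VI collagen, from 2.20 ± 0.390 to 14.4 ± 2.57 CPM (2.26, limma, adjusted p = 8.11e-10). In siMYCN 7 of the 11 rose (6 after either rescaling) and 0 fell, beside 24.5% of all genes higher, with a median of 0.52 beside 0.06 over all genes. COL3A1 rose there from 1.42 ± 0.250 to 4.19 ± 0.251 CPM (1.11, limma, adjusted p = 1.15e-06) and COL1A2 to 4.42 ± 0.273 CPM (1.03, limma, adjusted p = 1.14e-06). Levels here and in the following lists are means with the SD of 3 libraries.

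Another list held the enzymes that build the chondroitin and dermatan sulfate chains of decorin and its relatives. Of 18 tested genes (19 in the table), 3 rose and 4 fell in siHAND2 (2 and 6 after either rescaling), with a median log2 fold change of -0.01. The 38.9% called is near the 29.9% of all genes. CSGALNACT1, an enzyme that starts the chondroitin chain, fell from 22.0 ± 1.50 to 8.13 ± 0.276 CPM (-1.33, limma, adjusted p = 3.07e-10). XYLT1, a xylosyltransferase that attaches the first sugar to the core protein, rose from 6.65 ± 0.244 to 13.2 ± 0.431 CPM (0.89, limma, adjusted p = 1.92e-07). DSE, an epimerase that turns chondroitin into dermatan sulfate, fell from 50.6 ± 5.43 to 35.9 ± 0.356 CPM (-0.48, limma, adjusted p = 5.17e-05). In siMYCN 7 rose (5 after either rescaling) and 1 fell, which is 44.4% beside 35.9% of all genes, with a median of 0.10. CHST11, a chondroitin 4-O-sulfotransferase, rose to 66.6 ± 4.42 from 40.1 ± 1.29 CPM (0.72, limma, adjusted p = 1.37e-07), and XYLT1 rose to 11.4 ± 0.923 CPM (0.70, limma, adjusted p = 3.53e-06). CSGALNACT1 rose in siMYCN, by 0.51 (limma, adjusted p = 2.12e-05), opposite to siHAND2, and the knockdowns differed by -1.84 (limma, adjusted p = 5.99e-12).

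Keratan sulfate enzymes build the chains of lumican and fibromodulin. Of 6 tested genes (8 in the table), 1 rose and 2 fell in siHAND2 (3 fell after quantile normalization), beside 29.9% of all genes called, with a median of -0.09. B3GNT2, which extends the chain, changed by -0.27 (limma, adjusted p = 0.00484), B4GALT4, a galactosyltransferase of the same chain, by 0.24 (limma, adjusted p = 0.00551) and FUT8, which adds the core fucose of N-glycans, by -0.19 (limma, adjusted p = 0.0115). The FUT8 call was lost without siHAND2 replicate 2 (-0.17). In siMYCN 3 rose and 0 fell, beside 24.5% of all genes higher, with a median of 0.16. CHST1, a keratan sulfate sulfotransferase, rose there from 1.66 ± 0.244 to 4.89 ± 0.382 CPM (SD, n = 3 libraries; 1.15, limma, adjusted p = 1.10e-06), and it measured 1.27 ± 0.124 CPM in siHAND2. B3GNT2 rose by 0.27 in siMYCN (limma, adjusted p = 0.0038).

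**Figure D3:**
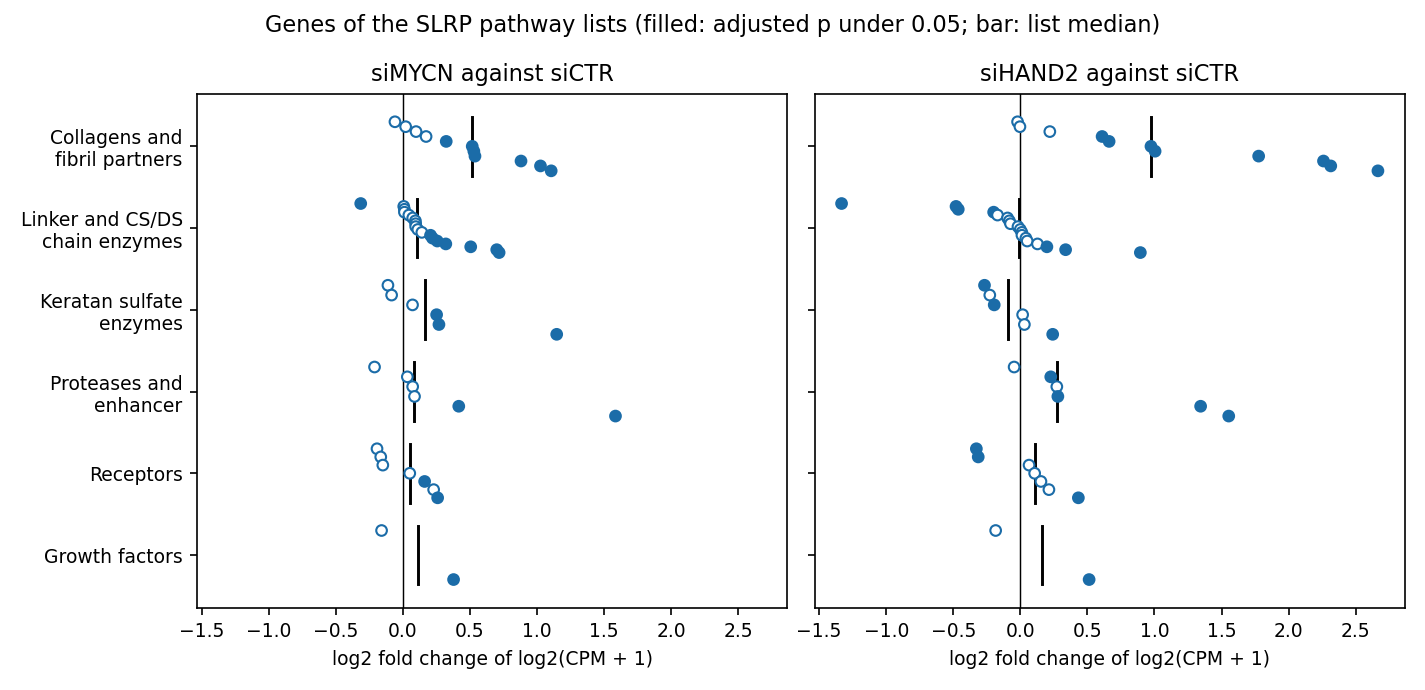
Log2 fold changes of log2(CPM + 1) (horizontal axis, same scale in both panels) of the tested genes of 6 lists around the SLRPs (rows; CS/DS is chondroitin and dermatan sulfate), in siMYCN (left) and siHAND2 (right) against siCTR. Filled points passed an adjusted p of 0.05 and black bars are list medians, the highest being that of the collagens, 0.52 and 0.97.

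Among proteases that cleave SLRPs or their precursors, together with the protease enhancer PCOLCE, 4 of 6 tested genes (8 in the table) rose in siHAND2 (3 after either rescaling) and 0 fell, beside 18.1% of all genes higher, with a median of 0.28. ADAMTS5, an aggrecanase, rose from 4.09 ± 0.590 to 13.9 ± 0.503 CPM (1.55, limma, adjusted p = 6.20e-09). TLL2, a relative of the procollagen protease BMP1, rose to 21.8 ± 0.852 from 7.98 ± 0.212 CPM (1.34, limma, adjusted p = 1.22e-10), and PCOLCE from 175 ± 3.10 to 214 ± 23.4 CPM (0.28, limma, adjusted p = 0.00229). In siMYCN 2 of the 6 rose, TLL2 by 1.59 (limma, adjusted p = 2.07e-10) and PCOLCE by 0.42 (limma, adjusted p = 6.12e-05), with a median of 0.08. That is 33.3% of the list, near the 35.9% of all genes called. After quantile normalization 1 gene of this list was also called lower in siMYCN.

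Of 7 tested receptors bound by SLRP core proteins (9 in the table), 1 rose and 2 fell in siHAND2 (2 rose after quantile normalization), beside 29.9% of all genes called, with a median of 0.11. LRP1, an endocytic receptor for decorin, rose from 52.5 ± 1.31 to 71.2 ± 2.29 CPM (0.43, limma, adjusted p = 1.70e-06). P2RX7, a purine receptor linked to biglycan signalling, changed by -0.33 (limma, adjusted p = 0.014) and ITGA2, a collagen receptor chain, by -0.31 (limma, adjusted p = 0.0121). Both calls were lost without siHAND2 replicate 2 (-0.27 and -0.26), that of P2RX7 also without siCTR replicate 2 (-0.26) and that of ITGA2 without siCTR replicate 3 (-0.26). In siMYCN 2 rose, ITGB1 by 0.26 (limma, adjusted p = 0.000134) and LRP1 by 0.16 (limma, adjusted p = 0.00967), which is 28.6% of the list beside 35.9% of all genes called. After either rescaling the LRP1 call was lost (0.11 in both), and 1 gene was called higher and 2 lower. ITGA2 in siMYCN was called with the replicate number as a block (-0.19, limma, adjusted p = 0.0245) and not without it (adjusted p = 0.0976).

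Of the growth factors bound by SLRP core proteins, TGFB1 and TGFB3 were tested (5 in the table). TGFB2, BMP4 and PDGFA stayed under 1 CPM in every library and were not tested. TGFB2 held 0.359, 0.449 and 0.212 CPM in siCTR and 0.855, 0.876 and 0.649 CPM in siHAND2, without overlap. BMP4 and PDGFA overlapped between these groups. Of all genes under the filter, 12.0% lay wholly above siCTR in siHAND2. TGFB3 averaged 0.619 ± 0.0864 CPM in siCTR and 1.31 ± 0.208 CPM in siHAND2 (SD, n = 3 libraries). It passed the filter through the siHAND2 libraries alone, so it was tested in the fit with no filter. There it rose by 0.51 (standard error 0.10, limma, adjusted p = 0.00284, against 0.00758 with the filter). The standard error was 0.13 with the filter, so here too the smaller p is not a stricter result. TGFB1 was called higher in siMYCN (0.38, limma, adjusted p = 0.0489), a call lost in 12 of the 17 alternatives that gave it a value. Without siCTR replicate 3 its value was 0.20.

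DCN and LUM are also used as fibroblast markers, so markers of other cell types were set beside them. Of 11 further fibroblast and stromal markers in the table, 7 were tested, and 3 rose and 2 fell in siHAND2, beside 18.1% of all genes higher and 11.8% lower. PDGFRA rose from 121 ± 4.49 to 341 ± 27.7 CPM (1.48, limma, adjusted p = 9.15e-12), COL3A1 from 1.42 ± 0.250 to 3.84 ± 0.271 CPM (1.00, limma, adjusted p = 2.44e-06) and PDGFRB from 89.8 ± 3.07 to 179 ± 17.3 CPM (0.98, limma, adjusted p = 3.84e-09). RGS5, a pericyte marker, fell from 493 ± 20.5 to 396 ± 35.5 CPM (-0.32, limma, adjusted p = 0.000425) and THY1 from 65.4 ± 5.91 to 56.8 ± 3.66 CPM (-0.20, limma, adjusted p = 0.027). The RGS5 call held in all 18 alternatives, and that of THY1 was lost in 5 of 18, among them without siCTR replicate 3 (-0.13), siCTR replicate 2 (-0.21), siHAND2 replicate 2 (-0.21) or siHAND2 replicate 3 (-0.15). In siMYCN 4 rose (3 after either rescaling), beside 24.5% of all genes higher, COL3A1 by 1.11 (limma, adjusted p = 1.15e-06) and THY1 by 0.25 (limma, adjusted p = 0.00598) among them. With the replicate number as a block 5 were called there, PDGFRB included (0.14, limma, adjusted p = 0.0138, against 0.0913 without the block). The summed level of the 11 was 930 to 985 CPM in siCTR, 1012 to 1039 CPM in siMYCN and 1129 to 1216 CPM in siHAND2. COL1A1, S100A4, TAGLN and POSTN stayed under 1 CPM in every library. POSTN, the periostin gene, was listed at 0 reads in 2 siCTR and 2 siMYCN libraries and measured 0.428, 0.319 and 0.532 CPM in siHAND2. COL1A1, whose product pairs with that of COL1A2 in type I collagen, measured 0.703, 0.936 and 0.522 CPM in siCTR and 0.526, 0.279 and 0.284 CPM in siHAND2. The part of other cells in the DCN and LUM values was not tested, and in bulk RNA more cells of a type and more RNA per cell cannot be told apart.

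No gene of the Schwann cell, endothelial and immune marker lists (5, 6 and 4 in the table) passed the filter. Their summed levels over all 9 libraries were 2.06 to 3.34 CPM, 0.979 to 2.26 CPM and 0.508 to 0.964 CPM, with overlap between siCTR and siHAND2 in each list. In siMYCN the Schwann cell sum, 3.08 to 3.34 CPM, lay wholly above the 2.06 to 2.84 CPM of siCTR, in the comparison where LUM and DCN rose, and its part in that result was not tested. Of the 10 neuroblastoma markers in siHAND2, 3 rose (4 after quantile normalization), 3 fell, beside 29.9% of all genes called, and the median log2 fold change was -0.03. SCG2, a secretory granule protein gene, rose by 1.61 (limma, adjusted p = 6.83e-12) and STMN2, a neuronal microtubule regulator, by 0.95 (limma, adjusted p = 1.81e-09), while DBH, the enzyme that makes noradrenaline, fell by 1.01 (limma, adjusted p = 6.84e-10). In siMYCN 9 of the 10 rose, STMN2 by 0.71 (limma, adjusted p = 1.24e-07) and CHGB by 0.70 (limma, adjusted p = 8.52e-07) among them, beside 24.5% of all genes higher.

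The genes most like DCN and LUM across the 9 libraries were sought by Pearson correlation of log2(CPM + 1) among 11201 tested genes averaging 5 CPM or more. This measure ignores the size of a change, and since all values share the same 9 libraries it serves only as a description. For DCN the 5 highest were SHOX2 (r = 0.997), SSTR2 (0.994), PDGFRA (0.992), MTUS1 (0.992) and SNED1 (0.990). SHOX2, a homeobox gene, went from 19.5 ± 0.687 through 24.4 ± 0.317 to 50.7 ± 1.66 CPM, and SNED1, which encodes a matrix protein, from 3.92 ± 0.376 through 4.99 ± 0.142 to 12.3 ± 0.759 CPM. For LUM they were PLK2 (0.997), MTUS1 (0.996), SCG2 (0.996), PFN2 (0.995) and COL1A2 (0.994). PLK2, a stress-responsive kinase gene, went from 166 ± 0.642 through 237 ± 6.42 to 398 ± 23.6 CPM, whereas PFN2, an actin regulator, went only from 265 ± 2.66 through 278 ± 1.44 to 308 ± 2.37 CPM. DCN and LUM correlated with each other at 0.987, which placed LUM 17th for DCN. Levels are means with the SD of 3 libraries, in the order siCTR, siMYCN and siHAND2.

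**Figure D4:**
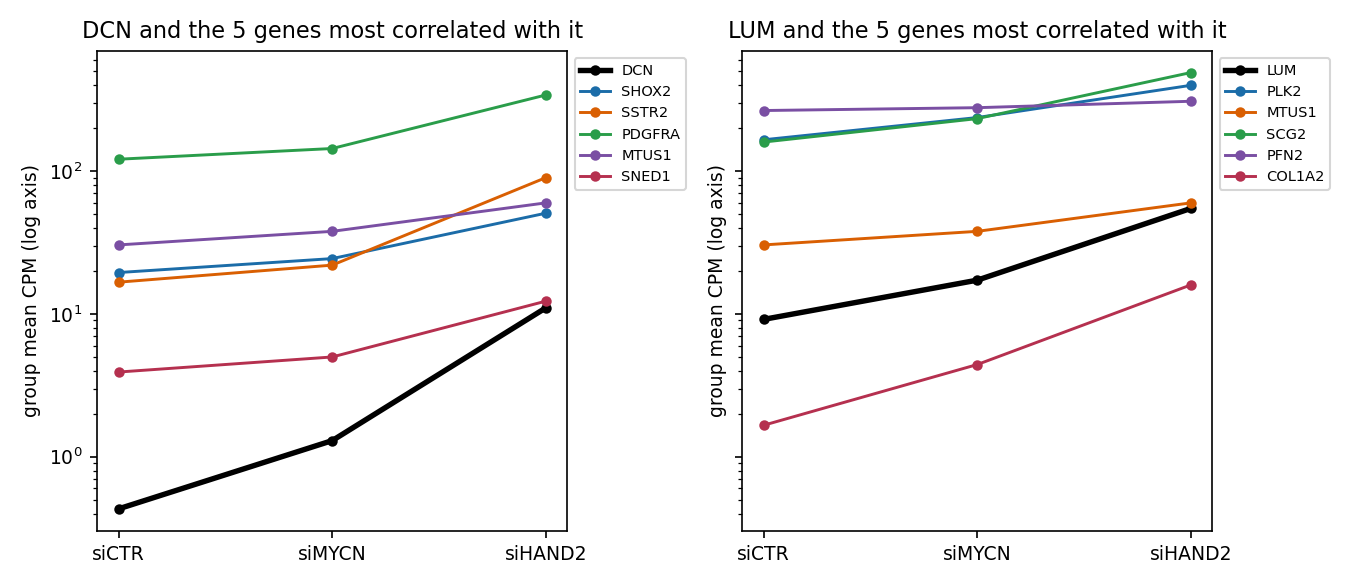
Group mean CPM (vertical axis, log scale) in siCTR, siMYCN and siHAND2 of DCN (left, black) and LUM (right, black) and the 5 genes with the highest Pearson correlation with each over the 9 libraries (colours). Each line is lowest in siCTR and highest in siHAND2, DCN from 0.431 to 11.02 CPM and PFN2 from 265 to 308 CPM.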

How the data were processed

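The authors deposited 1 table of CPM, in which each library has a column and each value carries a constant of 0.0001. Columns were matched to samples by name, and all 9 were used. STAR 2.5.1 and Partek are named in the submitters' processing notes, along with hg19 (GRCh37). The gene coordinates of the table match GRCh38 instead (18213 of 18215 symbols on the same chromosome of the RefSeq GRCh38.p14 table, 91.4% with a start within 5000 bases), so positions are given as GRCh38, counted from 1, with the end set 1 base before the listed stop. How reads were counted per gene, by strand or not, and which filters were used is not given in the sources used here.

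Reads were read off as multiples of the smallest CPM step. Over all genes, 79.4% to 80.9% of values up to 20 steps were whole within 0.02 of a step, too few for a count model, while all values of the members were whole. Intervals cover the spread between libraries only.

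Tests used limma 3.58.1 in R 4.3.3 on log2(CPM + 1), with 1 mean per group over all 9 libraries. They used an intensity trend (10.1 prior degrees of freedom) and two-sided p-values. The alternatives were other pseudocounts, filters and scalings, a fit of 2 groups alone, no trend, a replicate block and each library left out. Same-numbered libraries deviated together between siCTR and siMYCN (r = 0.102 to 0.215) and between siCTR and siHAND2 (0.121 to 0.266), but not in every pair of siMYCN with siHAND2 (-0.129 to 0.434). Pairs of libraries with different numbers ranged from -0.437 to 0.219, which overlaps the values of the same-numbered pairs. The labels do not say what the number shares. The members and lists were chosen with earlier results of these data known. Of each list, the text names the 3 called genes with the largest change in siHAND2 and up to 2 in siMYCN. CSGALNACT1 in siMYCN, ITGA2 in siMYCN, RGS5, THY1 in siHAND2, COL1A1, TNXB, TH, POSTN, TGFB2, BMP4 and PDGFA were named after their values were seen. DCN in siMYCN, OGN between the knockdowns and TGFB3 in siHAND2 were tested with no filter. That fit was put in place of the filtered one after the values were seen.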

Additional observations from a re-analysis of the deposited data

How the results depend on the processing

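The log2 fold changes of low genes depended on the pseudocount. In siHAND2 against siCTR, a pseudocount of 0.1 CPM gave 4.40 for DCN, 2.56 for LUM, -1.05 for FMOD and 0.71 for OGN, and a pseudocount of 5 CPM gave 1.56, 2.08, -0.28 and 0.13. In siHAND2 against siMYCN, DCN was 3.01 at 0.1 CPM and 1.35 at 5 CPM, and LUM was 1.42 at 5 CPM. No alternative turned the direction of LUM, DCN, FMOD or OGN in any comparison or changed a call of theirs that was tested. A filter of 5 CPM left FMOD and OGN out, so they had no value there. With 1 library left out, DCN ranged from 0.58 to 0.73 and LUM from 0.83 to 0.87 in siMYCN, and DCN from 3.03 to 3.12 and LUM from 2.41 to 2.52 in siHAND2. With the replicate number as a block and the filter kept, DCN in siMYCN stayed at 0.68 (limma, adjusted p = 8.04e-05). LUM stayed at 0.84 (limma, adjusted p = 4.50e-09), and no call of a member changed. The block raised the called chain enzymes in siMYCN from 8 to 9 and the called receptors from 2 to 3 in siMYCN and from 3 to 4 in siHAND2. The block moved the counts of called genes from 5209 to 5895 in siMYCN, from 4339 to 5089 in siHAND2 and from 3892 to 4689 between the knockdowns. Leaving out 1 library moved these counts to between 4013 and 5854, 3075 and 4290, and 2909 and 3940. Depth limits ASPN, PRELP and the other genes under the filter, whose values stand for few reads.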
